A study of Mus musculus with 36 samples.

Results

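Circular RNAs (circRNAs) of 9 genes of the circadian clock were examined: Clock, Arntl, Npas2, Cry1, Cry2, Rora, Rorb, Nr1d2 and Csnk1d. A circRNA was counted as a member when both of its ends lay inside one of these genes on the gene's strand (GENCODE M21, GRCm38). Of 33259 circRNAs listed for the 2 tissues, 30 met this rule, and they came from 8 of the 9 genes. All groups were untreated male mice, C57BL/6 by the labels and C57BL6/N by the study's methods, 9 to 10 weeks old, kept in a normal light-dark cycle, and total RNA of whole hippocampi or frontal lobes was sequenced. In each tissue 3 biological replicates were taken at each of 6 zeitgeber times (ZT, hours after lights on), ZT1, ZT5 and ZT9 in the light phase and ZT13, ZT17 and ZT21 in the dark phase, which gave 36 samples. The tissues hold mixed cell types, so fewer cells of a type and less RNA per cell cannot be told apart.

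The clock is a feedback loop of transcription. CLOCK, or its paralog NPAS2, pairs with the product of Arntl (BMAL1) and drives the Per and Cry genes, whose products then repress this pair. The nuclear receptors of the Ror and Nr1d families act with opposite sign on Arntl, and casein kinase 1 delta, the product of Csnk1d, phosphorylates the PER proteins. A circRNA arises when a downstream splice donor is joined back to an upstream acceptor, and only a read that crosses this junction shows that an RNA is circular.

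Among the activators, Npas2 gave by far the most circular reads, 141 hippocampal and 275 cortical, from 8 circles. Clock gave 35 and 28 reads (hippocampus first here and in the pairs below) from 6 circles, and Arntl gave 3 reads of 1 circle in 1 hippocampus library. Among the repressors, Cry1 gave 29 and 62 reads from 5 circles. Cry2, its paralog, gave 3 reads of 1 circle in 1 hippocampus library. Of the nuclear receptor genes, Rora gave 11 and 8 reads from 5 circles, Nr1d2 gave 2 reads of 1 circle in 1 cortex library, and Rorb gave no circle. The kinase gene Csnk1d gave 4 and 2 reads from 3 circles. No listed circRNA had only 1 end in any of the 9 genes or spanned one of them.

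The 6 circles described in most detail below are shown by their back-splice junctions, because these letters are what a circular read holds. Circles are numbered within a gene by their reads over both tissues. The last 15 bases before the junction are in lower case and the first 15 bases after it in capitals, in the direction of the transcript, taken from the GENCODE M21 transcripts. Only the ends of a circle are measured, and the exon content and spliced lengths given here count all annotated exons between them.
Npas2_1: cttggacatttaccgCAGGCAAGACTGCAT
Npas2_2: gctcttacaacaatgCAGGCAAGACTGCAT
Npas2_3: cttggacatttaccgAGCCTCTCGAAATAA
Npas2_4: cttggacatttaccgGCAAGACTGCATAGA
Clock_1: cagttaatgttagagAGTTCTGATGGTCAG
Cry1_1: gctgtagcggtggaaATTTTTGCTTCAGTG

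Npas2_1 (chr1:39263319-39300733, plus strand) joined exon 5 back to exon 2 of Npas2-201, a transcript of 21 exons. Its 4 exons make a circle of 388 nt that holds the annotated start codon, with 25 untranslated and 363 coding bases. It held 92 of the 141 Npas2 reads in the hippocampus (65.2%) and 204 of 275 in the cortex (74.2%). It was listed in 16 of 18 hippocampus and 17 of 18 cortex samples. By total reads it was the 825th of 23730 circRNAs in the hippocampus and the 232nd of 19811 in the cortex, so that 3.47% and 1.17% of listed circRNAs had more reads.

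The other Npas2 circles mostly reused the same ends. The acceptor at 39263319 (exon 2) stood in 84.9% of all Npas2 circular reads and the donor at 39300733 (exon 5) in 82.5%. Npas2_2 (chr1:39263319-39313068) ran from exon 2 to exon 7 over 623 nt, with 15 reads in 6 hippocampus samples and 38 reads in 11 cortex samples. Npas2_3 (chr1:39287468-39300733) held exons 3 to 5 in 331 nt, without the start codon, with 10 reads in 4 samples and 14 reads in 6 samples. Both therefore differ from Npas2_1 at a single end. Npas2_5 (exons 3 to 7) had 4 and 10 reads and Npas2_6 (exons 2 to 4) had 4 reads in the cortex. Npas2_7 began in an intron and Npas2_8 inside exon 6, with 2 reads each.

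Npas2_4 (chr1:39263322-39300733) shared the donor of Npas2_1 but began 3 nt further into exon 2, past the bases CAG with which the exon opens. It had 18 reads in 6 hippocampus samples and 3 reads in 1 cortex sample. Of the reads of Npas2_1 and Npas2_4 together, the shifted start made up 18 of 110 in the hippocampus (16.4%) and 3 of 207 in the cortex (1.45%). The hippocampus samples that held it were ZT1 replicate 2 (5 of 9 reads), ZT1 replicate 3 (2 of 19), ZT5 replicate 1 (3 of 6), ZT5 replicate 2 (4 of 9), ZT13 replicate 3 (2 of 6) and ZT21 replicate 3 (2 of 11). The shifted start outnumbered the main form in the first of these samples and equalled it in the third, and the single cortex sample that held it, ZT17 replicate 2, had 3 of 24 reads. This pair of circles was singled out after its values had been seen, so the difference of 14.9 percentage points is a description and was not tested. It lay between 11.4 and 16.4 points when each sample was left out in turn. A circle with a single read in a library is not listed, since the smallest count in the tables is 2.

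**Figure D1:**
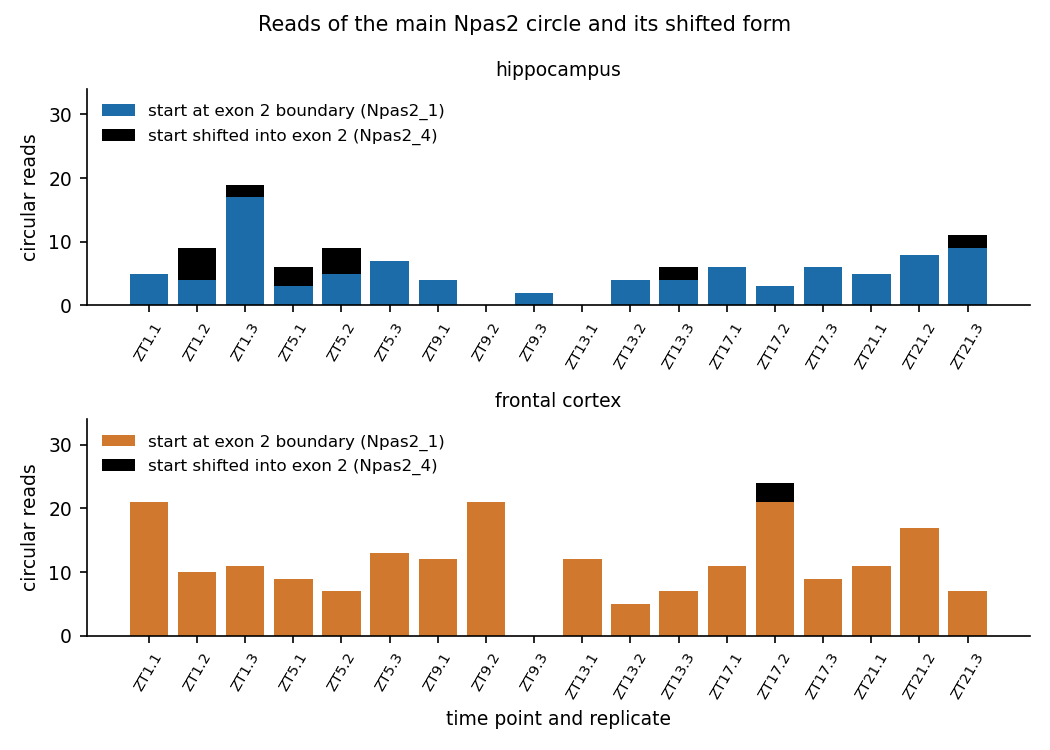
Circular reads (y axis) of Npas2_1 (coloured) and Npas2_4 (black, stacked on top) in each of 18 hippocampus samples (upper panel) and 18 frontal cortex samples (lower panel), named by time point and replicate. The black part appears in 6 hippocampus samples and in 1 cortex sample, while the coloured bars are mostly taller in the cortex.

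Clock_1 (chr5:76262675-76274043, minus strand) was the leading circle of Clock, with 23 reads in 8 hippocampus samples and 26 reads in 8 cortex samples. It joined exon 7 back to exon 3 of Clock-205, a transcript of 23 exons, in a circle of 476 nt with 128 untranslated and 348 coding bases, start codon included. The acceptor of exon 3 at 76274043 stood in 90.5% of Clock reads. Clock_2 (exons 3 to 8) had 2 reads in each tissue. Clock_3 to Clock_6, with 2 to 4 reads each, were listed only in hippocampus samples.

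Clock and Npas2 are paralogs, and the exons of their circles can be matched by length. Exons 3 to 7 of Npas2-201 and exons 6 to 10 of Clock-205 had the same lengths in the same order, 149, 92, 90, 121 and 114 nt. Compared base by base without gaps, they were identical at 72.5%, 70.7%, 64.4%, 67.8% and 64.9% of positions. In both genes circles ended with the 92-nt and with the 90-nt exon of this series. Other ends within the series were not shared. Clock circles also ended with the 149-nt exon, in 6 reads, and no Npas2 circle ended there. These 6 reads were all in the hippocampus, at 2 per sample, the smallest count listed. Npas2 circles also ended with the 114-nt exon, in 69 reads over both tissues (16.6% of Npas2 reads), and no Clock circle ended there. The leading Npas2 circle ended with the 90-nt exon, and the leading Clock circle ended 1 exon earlier, with the 92-nt exon. The matching minor forms were Npas2_6, which ended with the 92-nt exon and had 4 reads, and Clock_2, which ended with the 90-nt exon and had 4 reads over both tissues. The 90-nt exons are printed below with the bases that differ between the genes in capitals. Their last 15 bases, the donor side of Npas2_1 and of Clock_2, were identical at 13 positions.
Npas2 exon 5 (chr1:39300644-39300733, plus strand): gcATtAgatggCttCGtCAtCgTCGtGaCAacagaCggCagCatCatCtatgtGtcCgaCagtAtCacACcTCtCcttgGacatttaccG
Clock exon 8 (chr5:76254374-76254463, minus strand): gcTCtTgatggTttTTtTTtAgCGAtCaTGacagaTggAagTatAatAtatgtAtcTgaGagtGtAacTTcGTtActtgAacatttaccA

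Cry1_1 (chr10:85143016-85157194, minus strand) joined exon 10 back to exon 2 of Cry1-201, a transcript of 13 exons. Its 9 exons hold 1487 coding bases and no start codon, which makes it the longest of the 20 members with both ends on exon boundaries of a transcript. It had 23 reads in 7 hippocampus samples and 58 reads in 16 cortex samples. The remaining 4 circles of Cry1 had 2 to 4 reads each over both tissues.

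The other genes gave circles with little support. Arntl_1 (chr7:113287117-113295593, plus strand) held exons 10 to 13 of Arntl-204 with 3 reads. Nr1d2_1 (chr14:18211779-18222253, minus strand) held exons 2 to 6 of Nr1d2-201 with 2 reads. The circle of Cry2 (chr2:92405694-92427010, minus strand, 3 reads) had 1 end on an exon boundary. Rora is the longest of the 9 genes at 734461 nt, but 4 of its 5 circles lay inside introns with neither end on an exon boundary, and each of these had 2 or 3 reads in 1 sample. Rora_1 (chr9:69196075-69197589, plus strand) held exons 2 and 3 of Rora-206 in 112 nt, with 4 reads in 2 hippocampus samples and 6 reads in 2 cortex samples. Of the Csnk1d circles, 2 had both ends within untranslated exon sequence and off the exon boundaries, and Csnk1d_3 (chr11:120971567-120983343, minus strand) held exons 2 to 6 of Csnk1d-201. Each Csnk1d circle had 2 reads in 1 sample.

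**Figure D2:**
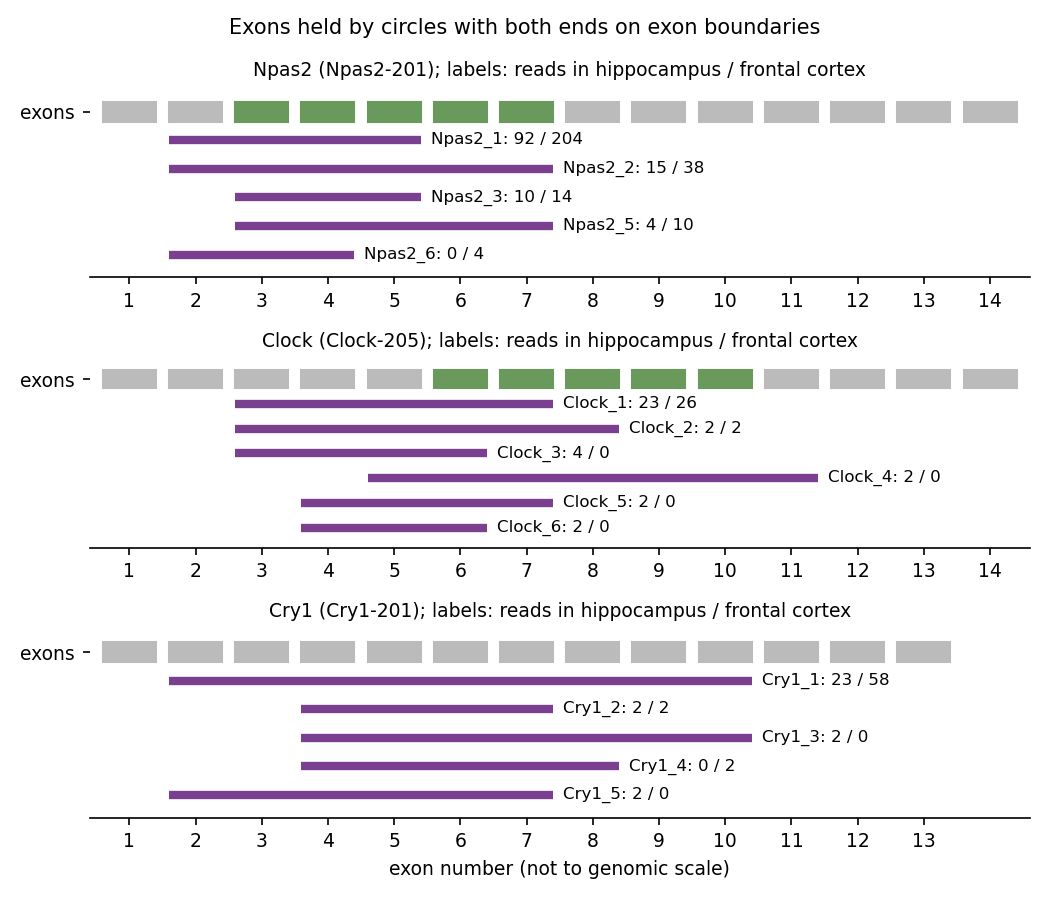
Circles of Npas2, Clock and Cry1 with both ends on exon boundaries, drawn as bars over the exons they hold (x axis: exon number, the first 14 exons at most, not to genomic scale). Each bar carries its reads in the hippocampus and the frontal cortex. Green exons are the 5 exons of equal length in Npas2 and Clock. The most-read circle of each gene started at exon 2 or 3.

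Of the 30 circles, 18 (60%) were listed in 1 sample only, against 57.3% of all 29473 circRNAs inside a gene. Both ends lay on exon boundaries in 20 of 30 members (66.7%) and in 71.7% of all. Among circles on a single transcript, 8 of 20 members (40%) began at exon 2, against 26.2% of all, and 8 of 20 (40%) held the start codon, against 13%. These circles share acceptors within Npas2, Clock and Cry1 and are not independent of each other. The median intron before the circle was 24092 nt long for the members and 8364 nt for all, while the median spliced length was 566 and 606 nt. In 10 of 30 cases a circle was listed in both tissues, in 14 in the hippocampus alone and in 6 in the cortex alone. Of all 29473 circRNAs inside a gene, 9947 were listed in both tissues, 11525 in the hippocampus alone and 8001 in the cortex alone. At least 2 replicates of one time point held 6 of the 30 circles in the hippocampus and 5 in the cortex. Over all 29473 the numbers were 5373 and 4666. The members so held were Npas2_1 to Npas2_3, Clock_1 and Cry1_1 in both tissues and Npas2_4 in the hippocampus.

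The libraries held 6754 to 73252 circular reads in the hippocampus (median 21924) and 8107 to 34803 in the cortex (median 20301). Hippocampus ZT1 replicate 3 was the deepest library, and hippocampus ZT13 replicate 1 and cortex ZT9 replicate 3 were the shallowest of their tissue. ZT13 replicate 1 held no member read and cortex ZT9 replicate 3 held no Npas2 read, so tissue results are also given without these 3 libraries. The tissue labels were checked on circular reads of marker genes. The 3 hippocampus markers (Prox1, Zbtb20 and Grik4) summed to 20.7 ± 5.74 reads per 10,000 circular reads in the hippocampus and 4.60 ± 2.37 in the cortex (SD, n = 18 each), with ranges of 7.40 to 32.4 and 0 to 7.61. Of the cortex markers, Cux1 had 26 reads in the hippocampus and 44 in the cortex, Cux2 had 0 and 4, Tbr1 had 0 and 3, and Lamp5 was at 0 in both. Astrocyte markers summed to 2.19 ± 1.501 in the hippocampus and 1.01 ± 0.829 in the cortex, with Aqp4 at 0. The 3 microglia markers had no circular read, the oligodendrocyte markers Mobp and Mbp had 9 and 2 reads in the hippocampus and none in the cortex, Mag was at 0, and the striatal, thalamic and endothelial lists had 7 or fewer reads in either tissue. The part of these cell types in the tissue differences was not tested.

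Summed, the members took a larger share of circular reads in the frontal cortex than in the hippocampus, mainly through Npas2 and Cry1. The 30 circles made up 0.0489% ± 0.0220 of all circular reads in the hippocampus (SD, n = 18), from 0 to 0.0853%, and 0.104% ± 0.0299 in the cortex (n = 18), from 0.0538% to 0.151%. All 18 hippocampus samples lay below the cortex median, and 13 of 18 cortex samples lay above the highest hippocampus sample. Npas2 carried 62.4% of the member reads in the hippocampus and 72.9% in the cortex. Without Npas2 the shares were 0.0178% ± 0.0119 and 0.0302% ± 0.0184. Of the reads pooled by tissue, Cry1 made up 0.00673% and 0.0171%, Clock 0.00812% and 0.00773%, and Rora 0.00255% and 0.00221%. Arntl, Cry2 and Csnk1d were not higher in the cortex either, and Nr1d2 had its 2 reads there. The larger cortical share was thus not a trait of all the genes.

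**Figure D3:**
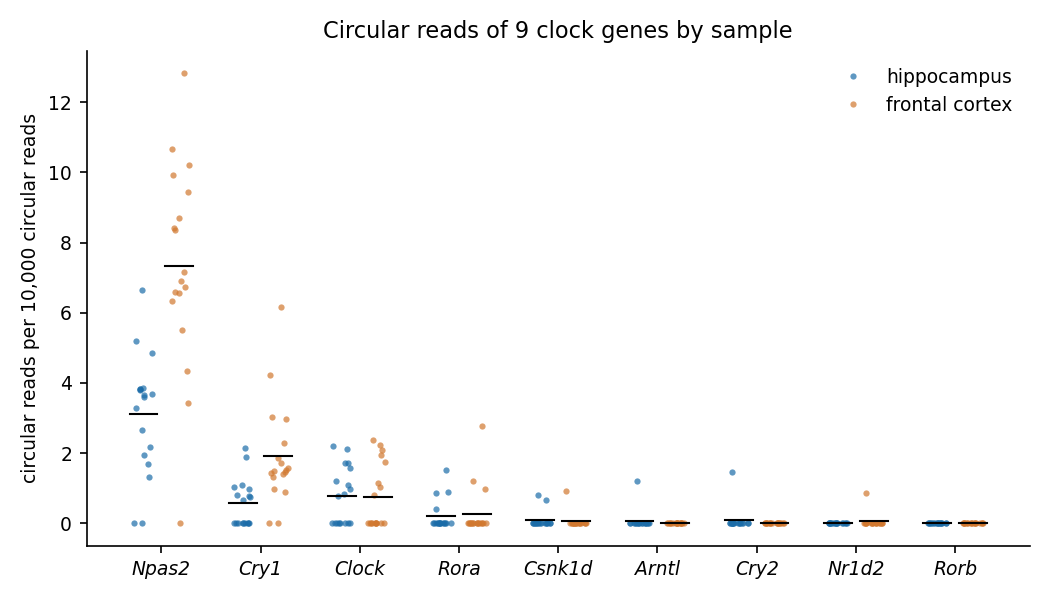
Circular reads of each of the 9 genes per 10,000 circular reads of the library (y axis), with 18 points per gene and tissue, each a sample, and black lines at the means. Npas2 stood at 3.11 (hippocampus) and 7.34 (frontal cortex), Cry1 at 0.564 and 1.91, and Clock at 0.786 and 0.743. Most samples were at 0 for Clock in the cortex and for the other 6 genes in both tissues.

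In the hippocampus, the samples held 0 to 24 reads of Npas2 circles (median 7), and in the cortex 0 to 31 reads (median 14.5). Scaled to 10,000 circular reads of the library, this was 3.11 ± 1.71 and 7.34 ± 2.96 (SD, n = 18 each). The tissues overlapped, with 11 of 18 cortex samples above the highest hippocampus value of 6.65, and at 3 of 6 time points every cortex sample lay above every hippocampus sample. For Npas2_1 alone the values were 2.02 ± 0.985 and 5.59 ± 2.75, and 15 of 18 cortex samples lay above the highest hippocampus value of 3.52.

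Differences between the tissues were tested with edgeR's quasi-likelihood test over all features that passed its filter on low counts, with time point as a covariate. Whether a hippocampus and a cortex sample came from one mouse is not stated, and the 36 samples were treated as independent. Only Npas2 among the 9 host genes and Npas2_1 among the 30 circles passed this filter. Npas2 circles, summed over the gene, were 2.41-fold lower in the hippocampus (log2 fold change -1.27, SE 0.24, adjusted p = 5.02e-05). Called in this test were 243 of 792 host genes (30.7%), and 21 of 792 had a lower fold change than Npas2. Npas2_1 was 2.66-fold lower in the hippocampus (log2 fold change -1.41, SE 0.25, adjusted p = 4.09e-05), where 215 of 707 circRNAs were called (30.4%) and 13 had a lower fold change. Npas2_1 passed the filter in the cortex samples alone and not in the hippocampus samples alone, so it entered this test through the tissue in which it was higher. Without any filter its log2 fold change was -1.30 (adjusted p = 0.000907, edgeR), with 195 of 33259 circRNAs called. The median log2 fold change was 0.02 at both levels. The fits that left out 1 sample each gave -1.33 to -1.18 for Npas2 and -1.46 to -1.29 for Npas2_1, all past the threshold of 0.05. Without the deepest and the 2 shallowest libraries the values were -1.25 (adjusted p = 1.29e-05) and -1.43 (adjusted p = 6.63e-06).

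**Figure D4:**
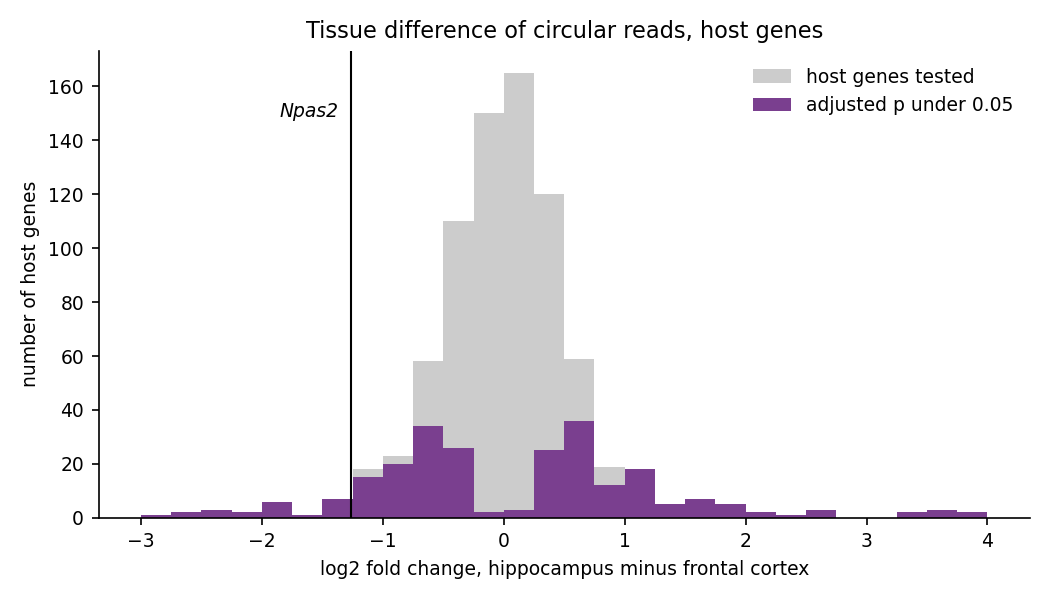
Number of host genes (y axis) by log2 fold change of their summed circular reads, hippocampus minus frontal cortex (x axis, bins of 0.25). Grey bars are all 792 host genes tested, purple bars those with an adjusted p under 0.05, and the line marks Npas2 at -1.27, with 21 genes to its left.

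Cry1 and Clock were below the filter in every fit. In the hippocampus samples there were 0 to 8 reads of Cry1 circles (median 1) and in the cortex samples 0 to 7 (median 3), or 0.564 ± 0.683 and 1.91 ± 1.47 reads per 10,000 (SD, n = 18 each). Cry1 was listed in 9 hippocampus and 16 cortex samples, and 5 of 18 cortex samples lay above the highest hippocampus value. In the fit without a filter the log2 fold change of Cry1 was -1.57 (SE 0.53, adjusted p = 0.0733, edgeR) and did not pass the threshold. Clock circles had 0 to 6 reads in the hippocampus samples (median 2) and 0 to 4 in the cortex samples (median 0), or 0.786 ± 0.814 and 0.743 ± 0.937 reads per 10,000. Clock was listed in 10 and 8 samples, and the log2 fold change without the filter was 0.18 (SE 0.60, adjusted p = 0.931, edgeR), an estimate too wide to place the tissues apart or together. In the same unfiltered fits no other member than Npas2 and Npas2_1 was called, where 233 of 6562 host genes and 195 of 33259 circRNAs were. With 18 of the 30 circles listed in 1 sample only, most members could hardly be called.

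For the question of the series, whether circRNAs change over the light-dark cycle, only Npas2 of the 9 genes passed the filter on low counts. In the hippocampus, Npas2 circles had 7, 11 and 24 reads at ZT1, 8, 9 and 7 at ZT5, and 4, 0 and 4 at ZT9. In the dark phase they had 0, 4 and 6 reads at ZT13, 9, 3 and 8 at ZT17, and 7, 13 and 17 at ZT21. Per 10,000 circular reads the means were 3.53 ± 0.222, 3.79 ± 1.10, 1.37 ± 1.19, 1.76 ± 1.79, 2.98 ± 1.45 and 5.23 ± 1.40 from ZT1 to ZT21 (SD, n = 3 each). The lowest means thus lay around the change from light to dark and the highest at the end of the dark phase. Samples overlapped between ZT1 and ZT5, between ZT9 and ZT13 and between ZT13 and ZT17. By sample, ZT5 lay wholly above ZT9, and ZT21 wholly above ZT1 and, by 3.843 against 3.839 at the closest, above ZT17. ZT1 also lay wholly above ZT9, and ZT21 above ZT9 and ZT13, while all other pairs of time points overlapped. These separations of 3 against 3 samples were picked out after the values had been seen and were not tested. Of the samples at 0, ZT13 replicate 1 was the shallowest library with 6754 circular reads, and ZT9 replicate 2 had 20286.

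No time test of Npas2 in the hippocampus passed the threshold in edgeR's quasi-likelihood test. Any difference over 6 time points had an unadjusted p of 0.177 (adjusted p = 0.999), a test in which 1 of 697 host genes (0.143%) was called and 25 had an unadjusted p under 0.05. A 24-h rhythm had an unadjusted p of 0.0445 (adjusted p = 0.999), with a fitted amplitude of 0.75 on the log2 scale and a fitted peak at ZT 22.7. In that test 0 of 697 host genes (0%) were called, 24 had an unadjusted p under 0.05 and Npas2 ranked 21st by p. The light phase held 74 reads in 8 of 9 samples (2.90 ± 1.41 per 10,000) and the dark phase 67 reads in 8 of 9 samples (3.32 ± 2.04 per 10,000). The dark against light difference was 0.27 on the log2 scale (SE 0.42, adjusted p = 0.988), with 0% of host genes called and 30 at an unadjusted p under 0.05. Its 95% interval, from -0.55 to 1.09, did not exclude a change of 1 log2 unit upwards.

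In the frontal cortex, Npas2 circles had 23, 10 and 16 reads at ZT1, 13, 11 and 17 at ZT5, and 19, 23 and 0 at ZT9. They had 12, 13 and 7 reads at ZT13, 20, 31 and 12 at ZT17, and 17, 24 and 7 at ZT21. Per 10,000 circular reads the means lay between 5.99 ± 1.43 (ZT21) and 8.51 ± 1.39 (ZT1), and ZT9 had the largest spread (7.42 ± 6.65) because its shallow replicate 3 was at 0. The order of the hippocampus means was not seen here. Any difference over time had an unadjusted p of 0.821 (0.157% of 638 host genes called, 19 at an unadjusted p under 0.05), and a 24-h rhythm had an unadjusted p of 0.813 (0% called, 26 at an unadjusted p under 0.05). Dark against light gave -0.31 on the log2 scale (SE 0.29, interval -0.87 to 0.25, adjusted p = 0.997, edgeR), with 0% of host genes called and 21 at an unadjusted p under 0.05.

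**Figure D5:**
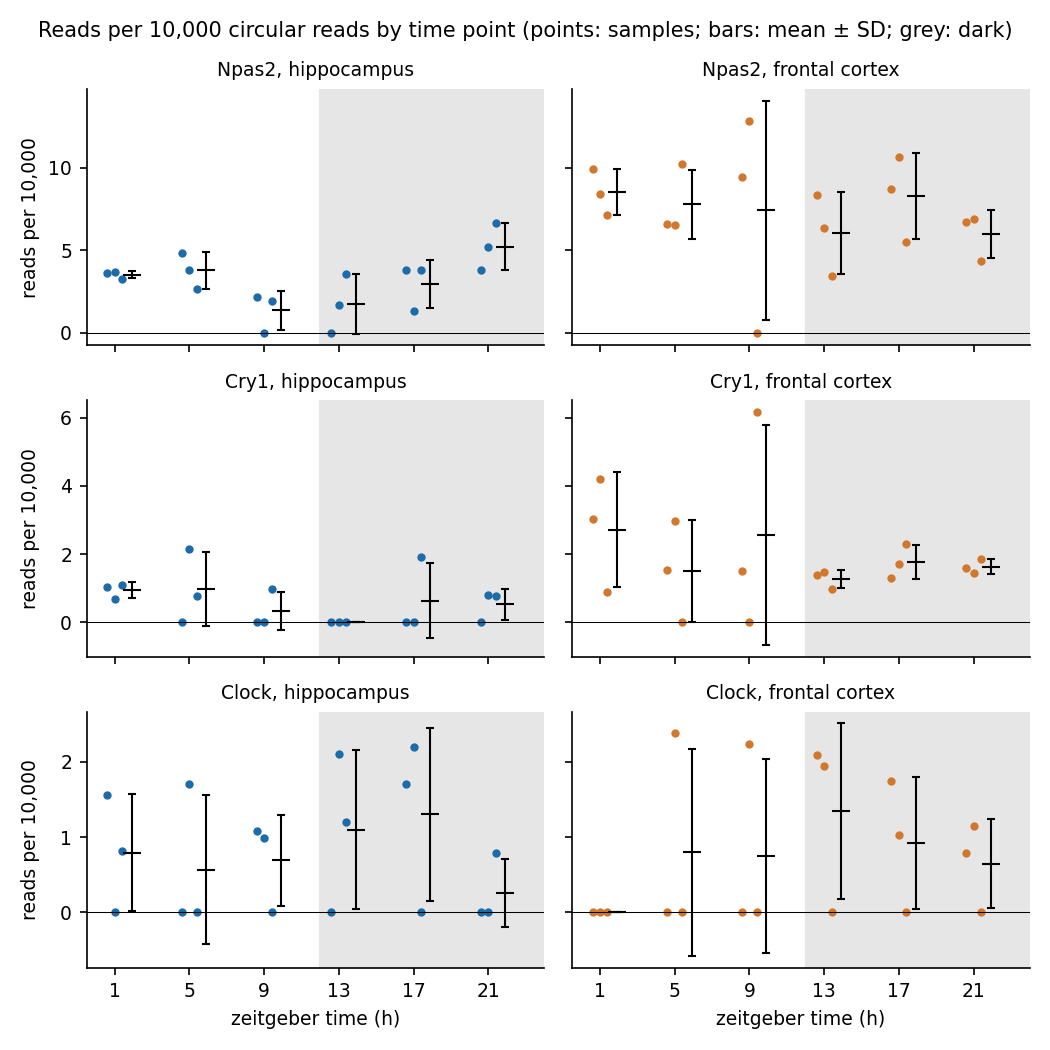
Reads per 10,000 circular reads (y axis) of Npas2, Cry1 and Clock circles against zeitgeber time in hours (x axis) in the hippocampus (left) and the frontal cortex (right). Points are samples, 3 per time point, bars beside them are the mean ± SD, and the dark phase is grey. Npas2 in the hippocampus runs from a mean of 1.37 at ZT9 to 5.23 at ZT21, and its cortex means do not follow this order. Beyond dark against light, a difference in course between the tissues was not tested. No time test passed the threshold.

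For the single circle Npas2_1, the cortex fits gave an unadjusted p of 0.765 for any difference over time and of 0.626 for a 24-h rhythm. Dark against light was -0.40 on the log2 scale (SE 0.33, adjusted p = 0.994, edgeR). Of 521 circRNAs tested in the cortex, 0% were called in any of these tests, with 14, 25 and 18 at an unadjusted p under 0.05. In the hippocampus Npas2_1 did not pass the filter. None of the 589 circRNAs tested there (0%) was called by edgeR, with 20, 13 and 29 at an unadjusted p under 0.05. DESeq2 called 1 of these 589 in the 24-h rhythm test, which was not a member since no member entered. No member that did enter a time test of either tissue was called by DESeq2.

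Whether the dark against light difference of Npas2 itself differed between the tissues was tested in 1 fit of 36 samples. The difference was 0.56 for Npas2 (SE 0.50, adjusted p = 0.931) and 0.73 for Npas2_1 (SE 0.54, unadjusted p = 0.184) on the log2 scale, hippocampus minus cortex. Of 792 host genes and 707 circRNAs, 0% were called, with 43 and 28 at an unadjusted p under 0.05 (edgeR). The 95% intervals ran from -0.42 to 1.53 and from -0.33 to 1.80.

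Cry1 and Clock were below the filter in the time tests, and their reads by phase are given before the tests without a filter. Cry1 circles in the hippocampus had 21 reads in 6 of 9 light phase samples and 8 reads in 3 of 9 dark phase samples, and none at ZT13. In the cortex they had 30 reads in 7 of 9 light samples and 32 reads in 9 of 9 dark samples. Clock circles in the hippocampus had 17 reads in 5 of 9 light samples and 18 reads in 5 of 9 dark samples. In the cortex Clock had 8 reads in 2 of 9 light samples and 20 reads in 6 of 9 dark samples, and none at ZT1. No test without a filter called Cry1 or Clock at any time. The smallest unadjusted p of these genes was 0.0960, for Clock in the dark against light phase of the cortex (adjusted p = 0.9998, edgeR). That test called 0 of 5082 host genes, and the same test in the hippocampus 2 of 5566. With counts this low and whole time points at 0, these tests cannot decide whether Cry1 or Clock circles change.

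Beyond the 9 genes, further genes of the clock pathway were looked up, of which 11 gave circles. With the 9 genes, 19 pathway genes gave 62 circles, and of these genes only Npas2 passed the filter on low counts. All 4 activators gave circles, Arntl2 with 5 and 2 reads in the hippocampus and the cortex. Of 7 repressors 3 gave circles, with Per3 at 2 and 2 reads and Per1, Per2, Ciart and Timeless at 0. Of the nuclear receptors, Rora and Nr1d2 gave circles and Rorb and Nr1d1 none. Of 9 kinases and ubiquitin ligases 6 gave circles, with Gsk3b at 19 and 7 reads, Fbxw11 at 15 and 11, Btrc at 12 and 16, Csnk1a1 at 8 and 5, and Csnk2a1 at 4 and 0. Of the 6 output transcription factors 4 gave circles. Hlf, a PAR bZIP factor, had 52 and 43 reads from 4 circles, more than Cry1 or Clock in the hippocampus. Its relatives Tef and Dbp had 5 and 3 reads and Nfil3 had 2 reads, all in hippocampus libraries. The 3 Dbp reads and 2 of the Tef reads came from ZT13 replicate 1, the shallowest library. The other 3 Tef reads came from ZT17 replicate 3, and the Nfil3 reads from ZT1 replicate 3, the deepest library.

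The host genes whose summed circular reads ran most like those of Npas2 over the 36 samples, each tissue centred on its mean, were Gm45062 (Pearson's r = 0.77, Spearman's rho = 0.55), Gabra2 (r = 0.75, rho = 0.35) and Unc79 (r = 0.74, rho = 0.43), where the median over 791 host genes was r = 0.18. Without the 3 libraries of extreme depth the same correlations over 33 samples were 0.44, 0.38 and 0.23, so that this likeness rested largely on those libraries. The samples share depth as well as tissue and time, and the values are a description.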

How the data were processed

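Total RNA, depleted of ribosomal RNA, was sequenced in 36 samples. The authors mapped reads to GRCm38 with BWA, identified back-splice junctions with CIRI2 and deposited the number of circular reads of each circRNA in each sample as whole counts, not normalized and not pooled. The smallest count above 0 is 2, and intervals of counting error were not computed because lower counts are not listed. 1 further column of counts was not used. The authors' notes name BWA and GRCm38. Linear RNA was not analysed here.

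CircRNAs were assigned to GENCODE M21 genes by both ends and strand, and counts were tested singly and summed per host gene with edgeR (version 4.0.16, R 4.3.3, normalized by TMM, filterByExpr, quasi-likelihood test, Benjamini-Hochberg adjustment over all features, threshold 0.05). TMM rests on circular reads alone. SE is the log2 fold change over the root of F, and a 95% interval is the normal one. Alternatives were no TMM, DESeq2's size factors, DESeq2 1.42.0, no filter, only circRNAs listed in 2 or more replicates of a time point, a replicate block and leaving out libraries. The fits were also run on simulated counts. Unlike the authors' counts, these could hold single reads, so that limit was not covered. Errors are SD, and replicates are biological ones per the series' design. Whether the tissues share mice is not stated, and the fits treat them as independent. Python 3.11.15, pandas 2.3.3, numpy 2.4.6 and matplotlib 3.10.9 were used.

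The text names all 9 genes, the leading circle of each, every circle past the filter and the 3 host genes most correlated with Npas2 (log2 CPM, prior count 2). Other circles were named after their values were seen. Members, lists and rules were chosen with earlier results of these data known. A few genes of these lists are not reported here.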

Additional observations from a re-analysis of the deposited data

Results flagged for a closer look

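Of 20 comparisons of a single sample with the other 8 of its tissue and phase (member share, and reads per 10,000 circular reads of Npas2, Cry1, Clock and Npas2_1), 2 stood apart by Dixon's test. Chance alone does this in about 1 of 20 groups of normal values. Some groups here hold many zeros and the measures share reads, so this rate is not exact. Frontal cortex ZT9 replicate 3 had 0 Npas2 reads per 10,000 circular reads, where the nearest light phase sample had 6.56 and the highest 12.8. It is the shallowest cortex library, with 8107 circular reads, and it held 5 Cry1 reads. Hippocampus ZT17 replicate 3 had 1.90 Cry1 reads per 10,000, which is 4 reads, where the nearest dark phase sample had 0.799 and the lowest 0. No difference between the tissues in the dark against light difference passed the threshold.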

How the results depend on the processing

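Over 32 results, 915 values were recomputed under the alternatives, and each kept its direction where it had one and, where tested, its side of the threshold. Some of these could hardly change. In the hippocampus no member circRNA passed the filter, so the count of called members in its circRNA time tests was fixed at 0 under it. Counts of called members also overlap with the results of Npas2 and Npas2_1. The shifted start counted as unchanged within an SD of 20.5 percentage points. Npas2 stayed lower in the hippocampus, with a log2 fold change between -1.28 and -1.19 over 8 alternatives (adjusted p from 4.53e-08 to 0.00132, edgeR or DESeq2), and Npas2_1 between -1.45 and -1.30 over 7. With time point and replicate number as a replicate block, the largest of these p, the Npas2 value was -1.22. Counts this low cannot decide whether the replicate numbers pair the samples. The deviations of hippocampus and cortex samples of the same number had a mean correlation of -0.020, with 1 of 18 pairs over 0.1. The 24-h rhythm of Npas2 in the hippocampus had an unadjusted p of 0.0495 with the replicate block and of 0.022 to 0.127 without each sample, and its smallest adjusted p was 0.257, without the filter. Without the 3 libraries of extreme depth, an alternative added after the data were seen, the shifted Npas2 start differed by 16.1 percentage points. The share of member reads was 0.0458% to 0.0519% in the hippocampus and 0.104% to 0.113% in the cortex. Depth limits all circles, Npas2_1 included, since a single read in a library is not listed.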
